A study of Mus musculus with 12 samples.

Results

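Glutamine and other neutral amino acids cross the plasma membrane through carriers of several solute carrier families. The transcripts of 9 such genes were examined here: Slc1a5, Slc38a1, Slc38a2, Slc38a3, Slc6a19, Slc7a5, Slc7a8, Slc3a2 and Slc3a1. They were taken by gene symbol, whatever their values, and each had 1 row in each of the deposited tables, which hold 50433 gene symbols for renal tubular epithelial cells (TECs) and 50434 for neutrophils (PMN).

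The study asked how intravenous glutamine acts on the kidney after ischemia-reperfusion injury (IRI), in which blood flow through the renal pedicles is clamped off and then released. All 12 libraries came from wild-type male C57BL/6J mice, 8 to 12 weeks old by the study's methods, that had undergone bilateral renal IRI and then received either glutamine or physiologic saline (vehicle). By the study's methods, the glutamine was given as the dipeptide alanyl-glutamine. The paper's accounts of the time of injection after reperfusion differ. Cells were taken 24 hours after IRI, with 3 libraries per treatment and cell type. TECs were sorted from kidney tissue as CD45- Prominin-1+ cells, and PMN came from peripheral blood. No library of sham-operated animals was analysed here, so every comparison is glutamine against vehicle in injured mice. Whether TECs and PMN came from the same mice is not given in the sources used here, nor whether a library holds 1 animal, so p-values measure the spread between these libraries.

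The carriers differ in how they move their substrates. Slc38a1, Slc38a2 and Slc38a3 encode sodium-coupled neutral amino acid transporters that carry glutamine; Slc38a3 can run in both directions and serves the kidney's handling of glutamine in acid-base balance. Slc1a5 encodes a sodium-dependent exchanger that takes up glutamine, alanine, serine and cysteine. Slc6a19 encodes the main sodium-coupled carrier of neutral amino acids in the brush border of the proximal tubule. Slc7a5 and Slc7a8 encode light chains of exchangers, which reach the membrane only when bound to the heavy chain CD98 encoded by Slc3a2. Slc3a1 encodes the heavy chain rBAT of the apical cystine transporter, whose light chain in the proximal tubule is encoded by Slc7a9.

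On GRCm38, in the GENCODE M21 annotation, all 9 are protein-coding genes. Slc1a5 lies at chr7:16781340-16798274 on the plus strand, and Slc3a1 at chr17:85028376-85064236 on the plus strand. The others are on the minus strand: Slc38a1 at chr15:96571418-96642913, Slc38a2 at chr15:96687392-96699730, Slc38a3 at chr9:107650634-107669530, Slc6a19 at chr13:73679745-73704865, Slc7a5 at chr8:121881150-121907694, Slc7a8 at chr14:54722209-54781946 and Slc3a2 at chr19:8706882-8723369. The values below are estimated counts of transcript reads given per gene, so that exons and UTRs were not measured apart. Slc3a1 shares 601 of its 2271 exon bases (26.5%) with Prepl on the opposite strand. Slc7a5 and Slc6a19 each overlap another gene on the opposite strand but share 0 exon bases with it.

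RefSeq (GRCm38.p6) gave a promoter for 5 of the 9 genes: Slc3a2, Slc38a2, Slc7a8, Slc6a19 and Slc3a1. The 250 bases before the start are shown for the pair with the highest level in both cell types (Slc3a2 and Slc38a2), the brush border carrier (Slc6a19) and a gene at or near 0 in all but 1 library (Slc3a1), 5′ to 3′ along the gene, with every match to the searched motifs in capitals. The windows are chr19:8713898-8714147, chr15:96699729-96699978 and chr13:73692637-73692886, all on the minus strand, and chr17:85028097-85028346 on the plus strand. The RefSeq starts of Slc3a2 and Slc6a19 lie within the longer GENCODE genes.
Slc3a2: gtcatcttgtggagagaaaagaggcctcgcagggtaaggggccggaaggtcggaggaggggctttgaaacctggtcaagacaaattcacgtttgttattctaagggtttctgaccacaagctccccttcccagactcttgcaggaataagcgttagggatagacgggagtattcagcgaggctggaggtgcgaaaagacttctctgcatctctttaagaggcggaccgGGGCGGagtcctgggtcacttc
Slc38a2: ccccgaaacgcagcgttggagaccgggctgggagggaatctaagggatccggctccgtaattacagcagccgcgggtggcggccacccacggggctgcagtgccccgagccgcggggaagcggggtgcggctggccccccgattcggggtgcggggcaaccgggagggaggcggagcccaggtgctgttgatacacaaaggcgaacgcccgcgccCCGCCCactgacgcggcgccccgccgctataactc
Slc6a19: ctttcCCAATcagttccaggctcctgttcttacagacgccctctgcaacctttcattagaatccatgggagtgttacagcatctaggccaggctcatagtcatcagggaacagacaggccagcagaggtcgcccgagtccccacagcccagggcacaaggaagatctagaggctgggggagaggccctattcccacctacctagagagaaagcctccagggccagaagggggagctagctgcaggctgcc
Slc3a1: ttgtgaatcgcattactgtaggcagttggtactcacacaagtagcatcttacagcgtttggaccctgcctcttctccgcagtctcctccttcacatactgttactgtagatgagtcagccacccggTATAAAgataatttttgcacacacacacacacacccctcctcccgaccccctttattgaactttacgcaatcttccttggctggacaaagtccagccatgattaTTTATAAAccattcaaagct

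On both strands, 6 motifs were searched: CCAAT (found in 33.8% of 32851 promoter windows of this length), TATAAA (12.4%), CACGTG (6.0%), TGATGNAA (3.5%), TGACGTCA (1.5%) and GGGCGG (32.7%). GGGCGG or its complement stood 22 bases before the start of Slc3a2, 35 before that of Slc38a2 and 107 before that of Slc7a8. Slc6a19 held 1 CCAAT, 245 bases before its start. Slc3a1 held 3 matches to TATAAA, at 124, 20 and 18 bases before its start, of which the last pair overlap on opposite strands. CACGTG, TGATGNAA and TGACGTCA had 0 matches in the 5 windows. These matches describe the letters of the windows and were not tied to any measured value.

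The TEC libraries held between 5397445 counts (glutamine replicate 2) and 10223546 counts (vehicle replicate 4), and the PMN libraries between 20225151 and 21878357. Correlations between libraries were 0.869 to 0.921 in TECs and 0.481 to 0.604 in PMN, so that single PMN libraries differed much more from each other. The sort markers fitted the TEC label: Prom1 stood at 64.4 to 83.1 CPM (counts scaled to library size) and Ptprc, which encodes CD45, at 0.102 to 2.73 CPM. Of the proximal tubule markers, Slc34a1 was high (1294 to 2700 CPM) while Slc5a2 was low (1.16 to 14.0 CPM). The TEC libraries also held all 7 listed endothelial genes, with sums of 317 to 535 CPM, and erythroid and platelet genes at 806 to 6709 CPM, highest in glutamine replicate 2 and next in vehicle replicate 5 (4409 CPM). Listed neutrophil genes summed to 102 to 263 CPM in TECs, and listed macrophage and monocyte genes to 59.4 to 162 CPM. The PMN libraries carried neutrophil genes such as S100a8 (6481 to 28640 CPM) and Ly6g (48.2 to 176 CPM), but also all 11 listed macrophage and monocyte genes, among them C1qa at 283 to 2523 CPM. PMN vehicle replicate 1 held 1010 CPM of the tubule gene Umod against at most 33.1 in the other PMN libraries. PMN vehicle replicate 2 held 593 CPM of the endothelial gene Kdr, which was at 0 in the others. Not every listed gene of these kinds did so. The tubule gene Slc12a1 was at 0.395 CPM in vehicle replicate 1. The endothelial gene Plvap was higher there (71.6 CPM) than in vehicle replicate 2 (45.1 CPM). In such bulk libraries, fewer cells of a type and less RNA per cell cannot be told apart.

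In TECs, the heavy chain and the system A carrier led the transporters. To compare genes with each other, CPM were divided by the length of the principal transcript in kilobases. With vehicle, Slc3a2 stood at 208 ± 27.3 CPM per kilobase and Slc38a2 at 56.9 ± 6.01 (mean ± SD, n = 3). Then came Slc6a19 at 22.3 ± 7.83, Slc1a5 at 12.8 ± 0.92, Slc7a8 at 9.01 ± 2.33 and Slc7a5 at 2.88 ± 0.63 CPM per kilobase (mean ± SD, n = 3). Slc38a1 (0.91 ± 0.42), Slc38a3 (0.15 ± 0.24) and Slc3a1 (0.15 ± 0.12) stood lowest. The vehicle libraries of neighbouring genes in this order did not overlap from Slc3a2 down to Slc6a19 and from Slc1a5 down to Slc38a1. Slc6a19 and Slc1a5 overlapped, as did Slc38a1 with Slc38a3 and Slc38a3 with Slc3a1.

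In PMN, Slc3a2 and Slc38a2 again led, at 309 ± 55.5 and 38.6 ± 9.82 CPM per kilobase with vehicle (mean ± SD, n = 3), and did not overlap. Below them came Slc7a8 (17.5 ± 12.1), Slc38a1 (7.29 ± 6.08), Slc1a5 (5.32 ± 4.42) and Slc6a19 (1.82 ± 1.88), each of which overlapped the next. Slc7a5 was at 0.004 ± 0.008 CPM per kilobase with vehicle, and Slc38a3 and Slc3a1 had 0 counts in each vehicle library, which allows a level of up to 0.137 to 0.145 CPM per library (3 counts, counting error only). The tables of the cell types were made separately, so their levels stand side by side without a test. With vehicle, Slc38a1 ranged from 1.19 CPM per kilobase downward in TECs and from 3.08 upward in PMN, and Slc6a19 from 13.3 upward in TECs and from 3.74 downward in PMN.

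**Figure D1:**
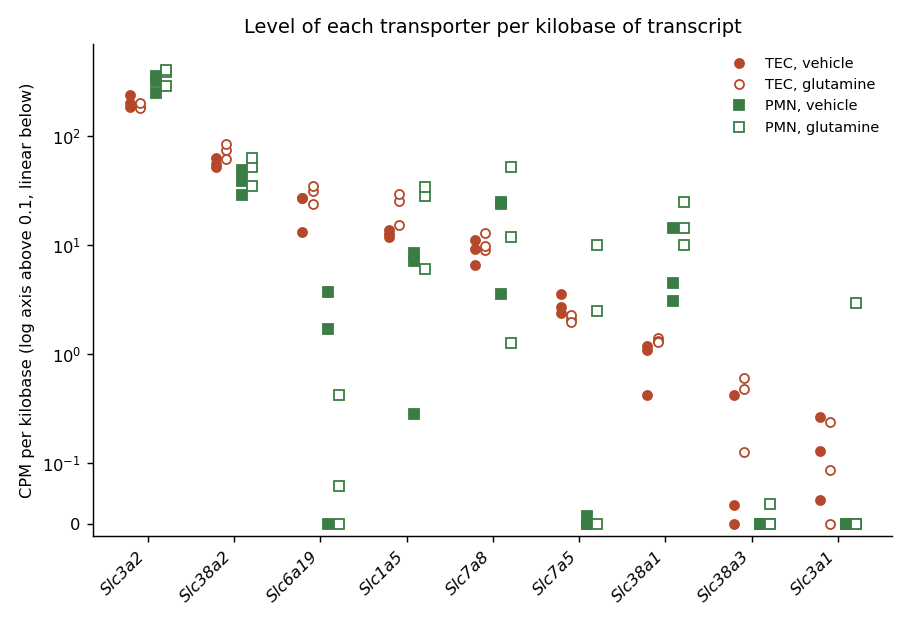
CPM per kilobase of principal transcript (log axis above 0.1, linear below) for the 9 genes in order of their TEC level with vehicle. Each point is 1 library, with circles for TECs, squares for PMN, filled symbols for vehicle and open symbols for glutamine. Slc3a2 and Slc38a2 are highest in both cell types, and the PMN squares of most other genes are spread widely.

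Glutamine against vehicle was tested gene by gene in each cell type with edgeR's quasi-likelihood test, and p-values were adjusted over all genes tested. In TECs 8 of the 9 transporters passed the expression filter, the exception being Slc3a1. None had an adjusted p-value below 0.05 (0.00% of the 14734 genes tested were called), and their adjusted p-values lay between 0.243 and 0.778. At an unadjusted p-value below 0.05 there was 1 of 8, Slc1a5, against 12.7% of all genes tested. With DESeq2's Wald test, which gave no adjusted p-value for Slc38a3, 0 of the other 7 had one below 0.05, against 1.91% of all genes. The fitted direction was higher with glutamine for 6 of 8 (50.6% of all genes), and the median log2 fold change of the 8 was 0.40 against 0.01 over all genes.

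Slc1a5, the glutamine exchanger, had the lowest p-value of the transporters in TECs. It stood at 37.9, 32.9 and 35.1 CPM in vehicle replicates 3, 4 and 5, and at 70.3, 80.7 and 41.9 CPM in glutamine replicates 1, 2 and 3. Each glutamine library therefore lay above each vehicle library, with glutamine replicate 3 only slightly so. The means were 35.3 ± 2.55 CPM with vehicle and 64.3 ± 20.05 CPM with glutamine (mean ± SD, n = 3), a log2 fold change of 0.86 (SE 0.26). The difference did not pass correction (adjusted p = 0.243, edgeR). Its adjusted p-value was 0.0986 with DESeq2 and 0.0889 without the expression filter, and lay between 0.0889 and 0.571 over 13 alternatives. Slc1a5 is also among the genes that the study lists as changed in these libraries, so its direction here is not independent of that choice.

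Among the sodium-coupled carriers, Slc38a1 was also higher in each glutamine library than in each vehicle library. It measured 3.05, 8.66 and 8.03 CPM with vehicle and 10.3, 9.61 and 9.50 CPM with glutamine. The low vehicle library was replicate 3, and the log2 fold change of 0.57 (SE 0.43, adjusted p = 0.602, edgeR) was 0.23 without that library. Separation of this kind, with glutamine above, was seen for 2 of the 8 transporters and for 8.97% of all genes tested.

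Slc38a2, whose transcription is known to respond to amino acid shortage, had the highest level per kilobase of the sodium-coupled carriers. Its levels were 243, 257 and 297 CPM with vehicle and 348, 395 and 289 CPM with glutamine, so the groups overlapped through glutamine replicate 3. The means of 265 ± 28.0 and 344 ± 53.1 CPM (mean ± SD, n = 3) gave a log2 fold change of 0.37 (SE 0.20, adjusted p = 0.455, edgeR). Slc38a3 was close to the limit of detection, with 1, 15 and 0 counts with vehicle and 16, 2 and 14 counts with glutamine. Its log2 fold change of 1.40 had an SE of 1.22, and in the fits that left out 1 library it ranged from 0.84 to 4.36.

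Slc6a19, the brush border carrier, was at 52.3, 106 and 106 CPM in vehicle replicates 3, 4 and 5 and at 94.3, 124 and 137 CPM in the glutamine libraries. Vehicle replicate 3 stood apart at the low end, while the other vehicle libraries lay within the glutamine range. The means were 87.9 ± 30.8 and 118 ± 21.7 CPM (mean ± SD, n = 3), with a log2 fold change of 0.43 (SE 0.28, adjusted p = 0.545, edgeR) that was 0.16 without vehicle replicate 3. The 8 listed markers of injured tubule, none of which was at 0 in all libraries, had their highest sum in that library. It was 12128 CPM, against 4619 to 10112 in the other TEC libraries. The 10112 CPM were those of vehicle replicate 4 and the 4619 CPM those of vehicle replicate 5, which both held 106 CPM of Slc6a19. The markers differed. Lcn2 (3587 CPM against 693 to 1721) and Havcr1 (790 CPM against 26.1 to 539), which encode NGAL and KIM-1, were highest in vehicle replicate 3. Krt20 was lowest in that library (518 CPM against 745 to 1202). Between treatments, Havcr1 was lower in each glutamine library (93.6, 49.3 and 26.1 CPM) than in each vehicle library (790, 539 and 106 CPM), with a log2 fold change of -3.08 (SE 0.65, adjusted p = 0.178, edgeR; 9.89% of all genes had glutamine below). Of the 8 injury markers, 3 were fitted higher and 5 lower, 1 had an unadjusted p-value below 0.05 (12.7% of all genes), and the median log2 fold change was -0.25. All 9 listed markers of the S1 and S2 proximal tubule, where this carrier is known to reside, were fitted higher with glutamine (50.6% of all genes), and 4 of them had an unadjusted p-value below 0.05 (12.7% of all genes). Their summed level ran from 2301 to 3719 CPM with vehicle and from 3411 to 4473 CPM with glutamine, and none of the 9 was at 0 in all libraries. No marker of these or later segments had an adjusted p-value below 0.05. Fitted higher were 5 of 8 tested markers of S3, 5 of 6 of the thick ascending limb, 6 of 6 of the distal convoluted tubule and 3 of 4 of the collecting duct, of which 2, 1, 3 and 0 had an unadjusted p-value below 0.05, with median log2 fold changes of 0.22, 0.14, 0.83 and 0.09, and the summed levels of each list overlapped between groups. The part of these markers in the values of Slc6a19 was not tested.

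**Figure D2:**
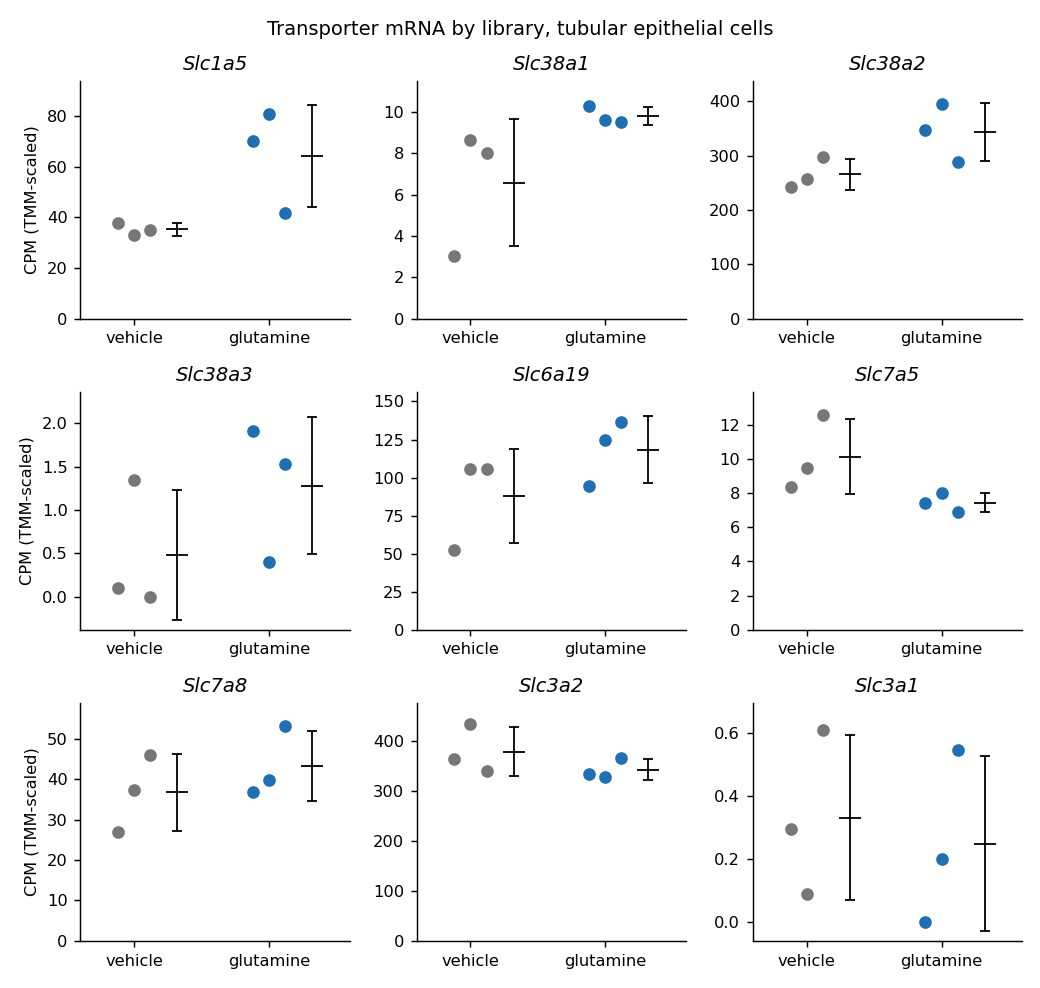
CPM (TMM-scaled) of each transporter in the 6 TEC libraries, with grey points for vehicle, blue points for glutamine, and a black dash with bars for the mean ± SD (n = 3). Glutamine libraries lie above the vehicle libraries for Slc1a5 and Slc38a1 and below them for Slc7a5, and the groups overlap in the other panels.

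The exchanger light chains were fitted in different directions in TECs, and neither passed the test. Slc7a5, which exchanges intracellular glutamine for leucine and other large neutral amino acids, stood at 8.36, 9.47 and 12.6 CPM with vehicle and at 7.41, 8.01 and 6.88 CPM with glutamine. Every glutamine library was below every vehicle library, an order found for 1 of the 8 transporters and for 9.89% of all genes. The log2 fold change was -0.45 (SE 0.34, adjusted p = 0.610, edgeR). Slc7a8, the light chain of the basolateral exchanger of the proximal tubule, was at 27.0, 37.3 and 46.0 CPM with vehicle and at 36.7, 39.8 and 53.1 CPM with glutamine. These groups overlapped widely, and the log2 fold change was 0.23 (SE 0.26, adjusted p = 0.727, edgeR). In the fits that left out 1 library it ran from 0.05 to 0.42, and that of Slc7a5 from -0.57 to -0.27.

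Slc3a2, their common heavy chain, had the highest level per kilobase of the 9 genes and varied little. It was at 363, 435 and 339 CPM with vehicle and at 334, 328 and 367 CPM with glutamine. The means of 379 ± 49.7 and 343 ± 20.9 CPM (mean ± SD, n = 3) differed by a log2 fold change of -0.15 (SE 0.19, adjusted p = 0.778, edgeR), within the spread between libraries, and by -0.22 to -0.04 in the fits that left out 1 library. Slc3a1, the other heavy chain, had 3, 1 and 6 counts with vehicle and 0, 1 and 5 counts with glutamine and was not tested. Prepl, which shares exon bases with it, had 241 to 694 counts in these libraries. Slc7a9, whose product is known to pair with rBAT, was at 48.0 ± 10.3 CPM with vehicle and 58.6 ± 16.1 CPM with glutamine (mean ± SD, n = 3), with a log2 fold change of 0.29 (SE 0.26, adjusted p = 0.669, edgeR).

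In PMN, 6 of the 9 transporters passed the expression filter, and the groups overlapped for each of them (glutamine lay above vehicle for 5.99% of all genes tested and below for 4.53%). By edgeR's quasi-likelihood test none was called after adjustment (0.00% of 10130 genes were), and none had an unadjusted p-value below 0.05 (3.42% of all genes). With DESeq2's Wald test the count was also 0 of 6, against 2.73% of all genes. The fitted direction was higher with glutamine for 5 of 6 (50.0% of all genes), with a median log2 fold change of 0.33 against 0.00 over all genes. The adjusted p-values of all 6 rounded to 1. Neither here nor in TECs does a count of 0 show that the groups were alike.

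Slc3a2 was again the highest per kilobase, at 454, 653 and 577 CPM in PMN vehicle replicates 1, 2 and 3 and at 698, 523 and 741 CPM in the glutamine libraries. Its log2 fold change was 0.20 (SE 0.27), and 0.03 to 0.34 in the fits that left out 1 library. Slc38a2 was at 180, 226 and 135 CPM with vehicle and at 162, 240 and 293 CPM with glutamine, a log2 fold change of 0.35 (SE 0.41) that ran from 0.14 to 0.56 in those fits. The SE of these 2 genes was below that of the other 4 tested transporters, which ran from 0.79 for Slc38a1 to 2.53 for Slc6a19.

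Slc1a5 spanned a wide range in PMN, at 0.79, 23.7 and 19.7 CPM with vehicle and at 77.8, 16.5 and 93.6 CPM with glutamine. Glutamine replicates 1 and 3 were above all vehicle libraries, while replicate 2 lay among them. The log2 fold change of 2.07 had an SE of 1.44, and it ranged from 1.46 to 2.61 in the fits that left out 1 library. Slc38a1 was at 104, 22.4 and 32.9 CPM with vehicle and at 105, 182 and 72.3 CPM with glutamine. Its log2 fold change of 1.17 (SE 0.79) was 2.08 without vehicle replicate 1 and 0.80 without vehicle replicate 2. The lowest value of Slc38a1 in these fits was 0.69, without glutamine replicate 2. With both genes the direction was upward in each of the fits that left out 1 library, and the adjusted p-values were between 0.690 and 1 over all alternatives.

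Slc7a8 had no stable direction in PMN. It was at 14.5, 97.6 and 102 CPM with vehicle and at 5.21, 48.2 and 214 CPM with glutamine, so that glutamine held both the lowest and the highest library. The log2 fold change was 0.31 (SE 1.31) over all libraries, -1.42 without glutamine replicate 3 and -0.24 without vehicle replicate 1. The library with the most Slc7a8 had the highest sum of macrophage and monocyte markers, but not the most of each: C1qa was highest there (2523 CPM against 283 to 1107) and Ly6c2 lowest (50.8 CPM against 130 to 343). Over all 11 markers, of which 0 were at 0 in all libraries, the summed level was 4771 to 9882 CPM with vehicle and 5447 to 12199 CPM with glutamine. The part of these cells in the values of Slc7a8 was not tested.

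**Figure D3:**
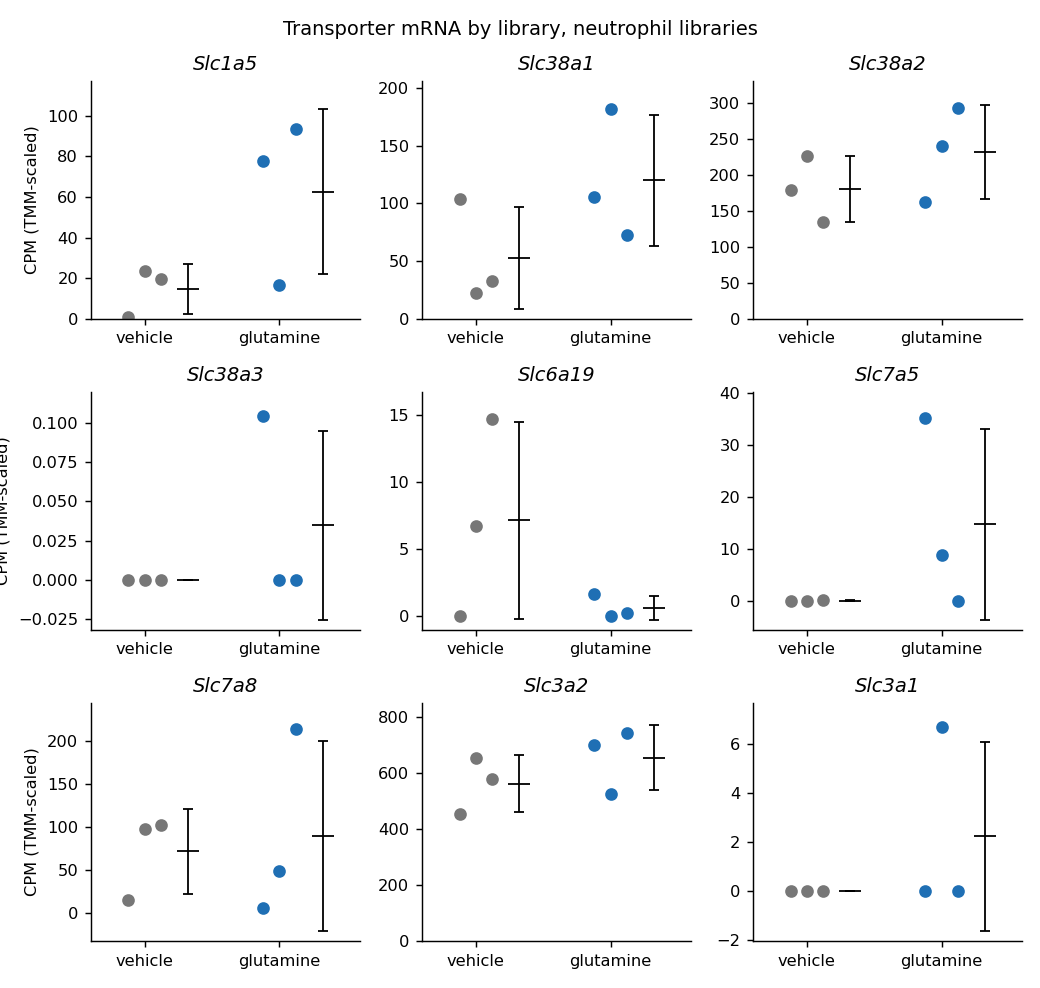
CPM (TMM-scaled) of each transporter in the 6 PMN libraries, with grey points for vehicle, blue points for glutamine, and a black dash with bars for the mean ± SD (n = 3). The groups overlap in each panel, and Slc38a3, Slc7a5 and Slc3a1 rest on counts in 1 or 2 glutamine libraries, apart from 1 vehicle count of Slc7a5.

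The remaining transporters were sporadic in PMN. Slc6a19 was at 0, 6.72 and 14.7 CPM with vehicle and at 1.67, 0 and 0.25 CPM with glutamine, which gave a log2 fold change of -3.49 with an SE of 2.53. Slc7a5 had 0, 0 and 1 counts with vehicle and 676, 189 and 0 counts with glutamine; it did not pass the expression filter and was not tested. Slc3a1 had 144 counts in glutamine replicate 2 and 0 in the other PMN libraries, and Prepl, its neighbour on the opposite strand, had 241 counts in that library, 753 and 829 in vehicle replicates 1 and 3 and 0 in the rest. Slc38a3 had 2 counts in glutamine replicate 1 and 0 elsewhere.

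**Figure D4:**
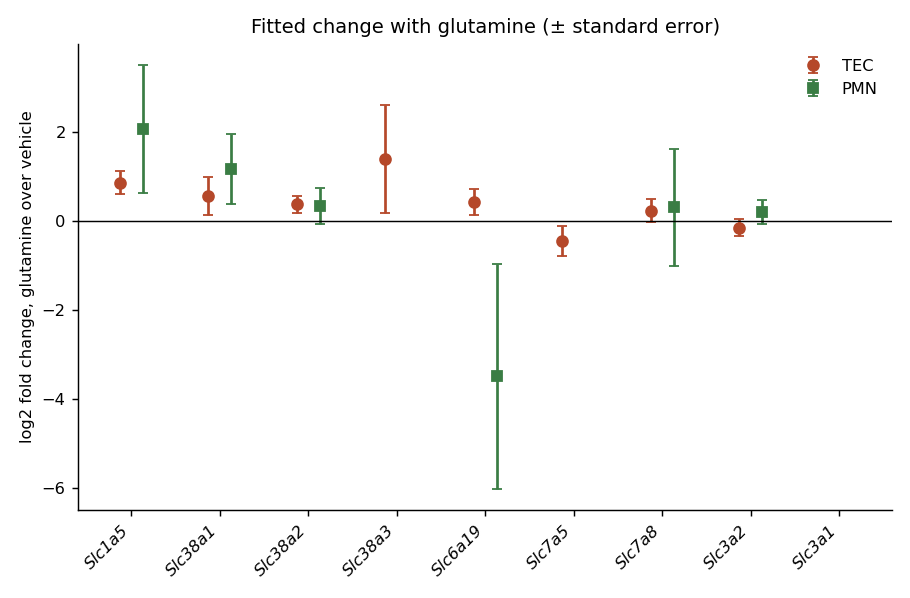
Log2 fold change of glutamine over vehicle with its standard error for each tested transporter in TECs (circles) and PMN (squares). Slc3a1 was tested in neither cell type, and Slc38a3 and Slc7a5 in TECs only. The PMN errors of Slc6a19, Slc1a5 and Slc7a8 exceed 1, and those of Slc3a2 and Slc38a2 are the smallest.

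Other carriers of neutral amino acids were measured next to these genes. Of 26 listed, 24 were in the TEC table and 16 were tested; 0 had an adjusted p-value below 0.05 (edgeR). Of the 16, 5 were fitted higher (50.6% of all genes) and 11 lower, and their median log2 fold change was -0.34 against 0.01 over all genes. Slc6a18, a relative of Slc6a19 in the late proximal tubule, was at 218 ± 43.0 CPM with vehicle and 157 ± 75.2 CPM with glutamine (mean ± SD, n = 3, adjusted p = 0.549). Unadjusted p-values below 0.05 were found for 2 of the 16, 1 in each direction, a share close to the 12.7% of all genes. Slc38a6, a further member of the Slc38 family, was at 24.5, 28.0 and 24.8 CPM with vehicle and at 45.2, 43.4 and 42.2 CPM with glutamine, a log2 fold change of 0.76 (SE 0.21, adjusted p = 0.223). Slc7a10, a light chain for small neutral amino acids, was at 9.44, 9.47 and 11.8 CPM with vehicle and at 6.93, 4.20 and 4.70 CPM with glutamine, a log2 fold change of -0.94 (SE 0.37, adjusted p = 0.337). In PMN, 8 of these carriers were tested, 3 were fitted higher (50.0% of all genes) and 5 lower, and 0 were called (0.00% of all genes).

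Light chains that share a heavy chain with these exchangers or pair with rBAT formed a list of 9, of which 6 were in the tables and tested in TECs. None had an adjusted p-value below 0.05, 4 were fitted higher (50.6% of all genes) and 2 lower, and the median log2 fold change was 0.30. The lowest p-value belonged to Slc7a13, the light chain of the late proximal tubule that also pairs with rBAT, at 36.1, 36.4 and 41.1 CPM with vehicle and at 195, 89.9 and 57.0 CPM with glutamine. Its log2 fold change was 1.59 (SE 0.38, adjusted p = 0.208, edgeR). The study lists this gene, too, as changed in these libraries. Slc7a11, the light chain of the cystine-glutamate exchanger, was at 13.8 ± 4.47 CPM with vehicle and 10.3 ± 4.92 CPM with glutamine in TECs (mean ± SD, n = 3, adjusted p = 0.697). In PMN Slc7a11 stood at 543, 327 and 552 CPM with vehicle and at 1094, 396 and 522 CPM with glutamine, and overlapped between groups (log2 fold change 0.49, SE 0.44).

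The list of 22 cationic, anionic, cystine and peptide carriers had 16 tested members in TECs, with a median log2 fold change of 0.30. Of the 16, 13 were fitted higher (50.6% of all genes) and 3 lower. The list had 0 members with an adjusted p-value below 0.05 and 1, Slc7a13, below 0.05 unadjusted (12.7% of all genes). In PMN 11 were tested, 7 were fitted higher (50.0% of all genes) and 4 lower, and 0 were called (0.00% of all genes). Among them 1, Slc15a2, which encodes a peptide carrier, was below 0.05 unadjusted (3.42% of all genes). It was at 0.20, 0.17 and 3.33 CPM with vehicle and at 10.2, 13.95 and 82.9 CPM with glutamine (log2 fold change 4.85, SE 2.04). The anionic carrier Slc1a1, which takes glutamate back up in the proximal tubule, was at 42.4 ± 11.7 CPM with vehicle and 52.3 ± 11.7 CPM with glutamine in TECs (mean ± SD, n = 3, adjusted p = 0.664).

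Of 15 listed regulators of amino acid transport, 14 were tested in TECs. Of these, 9 were fitted higher (50.6% of all genes) and 5 lower, and 0 were called (0.00% of all genes). Atf4, the transcription factor of the amino acid response, was at 391, 552 and 989 CPM with vehicle and at 715, 920 and 895 CPM with glutamine, a log2 fold change of 0.39 (SE 0.30, adjusted p = 0.616, edgeR). Asns, an amino acid response gene, was at 20.6 ± 5.64 CPM with vehicle and 12.7 ± 4.94 CPM with glutamine (mean ± SD, n = 3, log2 fold change -0.71, adjusted p = 0.439). Chac1 (log2 fold change -0.78, SE 0.34, adjusted p = 0.369) and Myc (-0.72, SE 0.32, adjusted p = 0.386) had unadjusted p-values below 0.05, 2 of 14 against 12.7% of all genes. Sgk1, a kinase that raises the surface abundance of several of these carriers, was at 220, 269 and 299 CPM with vehicle and at 185, 382 and 920 CPM with glutamine, and overlapped between groups. In PMN 9 regulators were tested, 1 was fitted higher (50.0% of all genes) and 8 lower, and 0 were called (0.00% of all genes).

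The tested genes whose log2 CPM followed Slc1a5 most closely over the 6 TEC libraries were 2410004P03Rik (Pearson's r = 0.994), Brd9 (0.991) and Srrm2 (0.991). For Slc6a19 they were Asb4 (r = 0.996), March6 (0.995) and Arap2 (0.995). With 6 libraries, 58 genes had an r above 0.95 with Slc1a5 and 75 with Slc6a19, so that such values are a description of these libraries only.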

How the data were processed

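RNA was measured in sorted TECs and blood PMN of IRI mice given glutamine or vehicle, with 3 libraries per group, grouped by the sample labels. The values deposited by the authors are estimated counts for each gene symbol, without normalization. Their processing notes name FastQC, MultiQC, Trim Galore 0.6.4, Salmon 1.0.0, DESeq2 and the build mm10; the annotation is not given in the sources used here. Salmon shares reads that fit several transcripts, so a gene's count need not be whole. A spreadsheet program had altered the deposited PMN table: 3.20% of its cells carried extra points, of which the last was read as the decimal point, and 0.391% had become dates, none of them in a transporter's row. Its 2 columns per library correlated at 0.994 to 0.996 and were averaged as 1 replicate. All sample columns were mapped.

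Counts were rounded and tested in each cell type with edgeR 4.0.16 (R 4.3.3): TMM scaling, the default expression filter, the quasi-likelihood test, and Benjamini-Hochberg adjustment over all genes with a threshold of 0.05. The SE of a log2 fold change came from the fold change and the F statistic. CPM were TMM-scaled. DESeq2 1.42.0, limma 3.58.1, other scalings, filters and thresholds, the columns of a PMN library alone and fits without each library were alternatives. Counting precision is limited by totals of 5397445 to 10223546 (TEC) and 20225151 to 21878357 (PMN). The likeness of genes was Pearson's r of log2(CPM + 0.1). Levels per kilobase assume even coverage along a transcript.

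The transporters and gene lists were chosen with earlier results of these data known. The genes named are these 9, their partners and relatives, and genes of the lists with an adjusted p-value below 0.05 (none was found); list members with an unadjusted p-value below 0.05, examples from the lists and the marker genes were picked after their values were seen. Some listed genes are not analysed here.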

Additional observations from a re-analysis of the deposited data

How the results depend on the processing

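No transporter had an adjusted p-value below 0.05 in TECs or PMN under any alternative that was run, and in TECs all 103 alternative log2 fold changes of the 8 tested genes kept the direction of the reported fit. In PMN 86 of 89 did. The 3 that reversed were of Slc7a8, at -0.48 with limma-voom, -0.24 without PMN vehicle replicate 1 and -1.42 without PMN glutamine replicate 3, in a range of -1.42 to 0.83 over the fits that left out 1 library; the cause was not tested. The number of genes called across the whole TEC table was 0 in the reported fit, 245 with DESeq2's Wald test and 425 without an expression filter, and 0 to 36 when 1 library was left out, with 4 without vehicle replicate 5 and 36 without glutamine replicate 2. In PMN it was 0, and 304 with DESeq2's Wald test. No paired analysis was possible because the numbers of the TEC labels meet only at 3 and the PMN labels carry none.

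Lengths other than that of the principal transcript, an alternative chosen after seeing the data, lowered levels per kilobase most when all exons were joined: with vehicle in TECs, Slc3a2 went from 208 to 108 CPM per kilobase, Slc38a2 from 56.9 to 30.0 and Slc38a1 from 0.91 to 0.38, and in PMN Slc38a1 went from 7.29 to 3.07. The TEC order was the same with the longest transcript; with all exons joined, Slc3a1 passed Slc38a3 in TECs and Slc1a5 passed Slc38a1 in PMN. Leaving out 1 library moved the log2 fold change of Slc38a3 in TECs between 0.84 and 4.36 and that of Slc6a19 in PMN between -5.86 and -2.44.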
